A study of Mus musculus with 12 samples.

Results

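Nrf2 binding was examined at 3 genes of the thioredoxin, peroxiredoxin and sulfiredoxin system, Srxn1, Prdx1 and Txnrd1. Their regions were taken by position on the mm9 mouse genome, as every chromatin immunoprecipitation sequencing (ChIP-seq) peak within 50 kb of an approximate gene start. The starts used were 151931500 on chromosome 2 for Srxn1, 116358500 on chromosome 4 for Prdx1 and 82310000 on chromosome 10 for Txnrd1, the last with the wider interval 82250000 to 82420000. Peaks of all libraries that overlapped were merged, and 48 of the 8644 peaks fell in these windows, in 10 of the 4147 merged regions. Each region is called by the distance of its middle from the start used, with negative distances on the upstream side, since RefSeq places all 3 genes on the plus strand.

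The cells were peritoneal macrophages of mice aged 7 to 8 weeks, drawn into the cavity by injected thioglycolate broth (4%) and collected 4 days later. Wild-type (WT) cells carried the normal Nrf2 gene. The other genotype, Nrf2(AY/AY), here AY, is homozygous for an altered Nrf2 known to carry tyrosine in place of an alanine of its DNA-contacting part. Cells of both genotypes were exposed to the electrophile diethyl maleate at 100 µM for 4 hours, so no untreated cells enter the comparison. Each genotype had 3 ChIP libraries made with 1 anti-Nrf2 antibody. The 6 input libraries were not analysed here. Whether the libraries came from separate animals is not stated, so p-values measure only the spread between libraries, which may be technical. Peak lists hold no gene expression, so the macrophage label could not be set against marker genes.

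Nrf2 pairs with small Maf proteins and binds antioxidant response elements in DNA, and it is released from Keap1-dependent breakdown when electrophiles react with Keap1. The genes studied here form 1 chain of thiol chemistry. Thioredoxin reductase 1, the product of Txnrd1, passes electrons from NADPH to thioredoxin, thioredoxin restores peroxiredoxins such as the Prdx1 protein after they have reduced a peroxide, and sulfiredoxin, the product of Srxn1, rescues peroxiredoxins whose active cysteine has been overoxidised.

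Promoter sequences are shown first because the Srxn1 region covers the gene start used, and Prdx1 has a region beside its own. RefSeq sequences on GRCm38.p6 matched all 3 genes, with 1 start each for Srxn1 and Prdx1 and 3 for Txnrd1. They give the 250 bases before the start, plus strand, 5′ to 3′, at chr2:152105274-152105523 (Srxn1), chr4:116685349-116685598 (Prdx1) and chr10:82858956-82859205 (the Txnrd1 start with a motif match). These positions belong to a later build than the peaks and cannot be compared with mm9 positions. Capitals mark matches to TGACNNNGC, an Nrf2-small Maf type core, to TGANTCA, the shorter core shared with AP-1 factors, or to GCTGANTCA, which adds a Maf-type flank. Both strands were searched, and GCTGANTCA always contains TGANTCA.
Srxn1: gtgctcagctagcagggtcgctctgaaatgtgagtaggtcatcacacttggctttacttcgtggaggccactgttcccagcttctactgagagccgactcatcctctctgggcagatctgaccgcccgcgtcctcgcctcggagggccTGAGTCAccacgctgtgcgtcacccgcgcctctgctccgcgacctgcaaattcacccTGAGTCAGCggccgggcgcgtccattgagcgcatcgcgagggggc
Prdx1: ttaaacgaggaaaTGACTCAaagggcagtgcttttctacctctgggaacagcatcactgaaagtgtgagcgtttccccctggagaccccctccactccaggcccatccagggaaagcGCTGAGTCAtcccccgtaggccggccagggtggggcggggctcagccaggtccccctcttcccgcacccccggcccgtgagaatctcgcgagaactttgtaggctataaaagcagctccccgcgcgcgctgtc
Txnrd1: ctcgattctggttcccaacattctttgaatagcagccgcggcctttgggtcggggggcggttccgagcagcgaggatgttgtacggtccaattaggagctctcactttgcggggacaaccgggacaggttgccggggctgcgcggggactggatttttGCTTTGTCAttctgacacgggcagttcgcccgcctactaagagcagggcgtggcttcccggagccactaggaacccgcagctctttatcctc

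The Srxn1 promoter held 2 matches to TGANTCA, at 102 to 96 and 45 to 39 bases before the start, and the nearer was part of a match to GCTGANTCA on the reverse strand. It held no match to TGACNNNGC. The Prdx1 promoter held 2 matches to TGANTCA, at 237 to 231 and 131 to 125 bases before the start. The second of these lay within 1 stretch that matched GCTGANTCA on the forward strand and TGACNNNGC on the reverse strand, at 133 to 125 bases. Of the 3 Txnrd1 promoters, 1 held a match to TGACNNNGC, at 92 to 84 bases on the reverse strand, and none held TGANTCA. Among 32851 promoter windows of the same length, 10.2% held TGACNNNGC, 6.75% TGANTCA and 1.02% GCTGANTCA. A list of 23 other thiol redox genes (thioredoxins, peroxiredoxins, glutaredoxins, methionine sulfoxide reductases, sestrins, glutathione reductase and related genes) had promoters for 19. Of these, Sesn2 and Txndc5 held TGACNNNGC, Glrx held TGANTCA and 0 held GCTGANTCA. Peaks could not be counted near these 23 genes, because no mm9 gene positions were used. A match describes letters and does not show binding.

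Nrf2 peaks were called at all 3 genes in every library of both genotypes. Of the 10 regions, 6 held a peak in all 6 libraries: 1 at Srxn1, 3 at Prdx1 and 2 at Txnrd1. Of all 4147 regions, 4.87% did so. None of the 10 was held by every library of 1 genotype and no library of the other. Over all regions, 5.21% were held by the 3 WT libraries alone and 9.38% by the 3 AY libraries alone. The remaining 4 regions had peaks in 2 to 4 libraries, and 3 of them were held by more AY than WT libraries, as were 49.0% of all regions. WT replicates 1, 2 and 3 had 8, 7 and 7 peaks in the windows, and AY replicates 1, 2 and 3 had 10, 9 and 7. The whole lists held 1604, 826 and 1533 peaks in WT and 2154, 1441 and 1086 in AY. The library with most peaks in the windows also had the longest list, while WT replicates 2 and 3 had 7 each with lists of 826 and 1533. Read depth is unknown, and where no peak was called the site may still be bound below the caller's threshold.

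**Figure D1:**
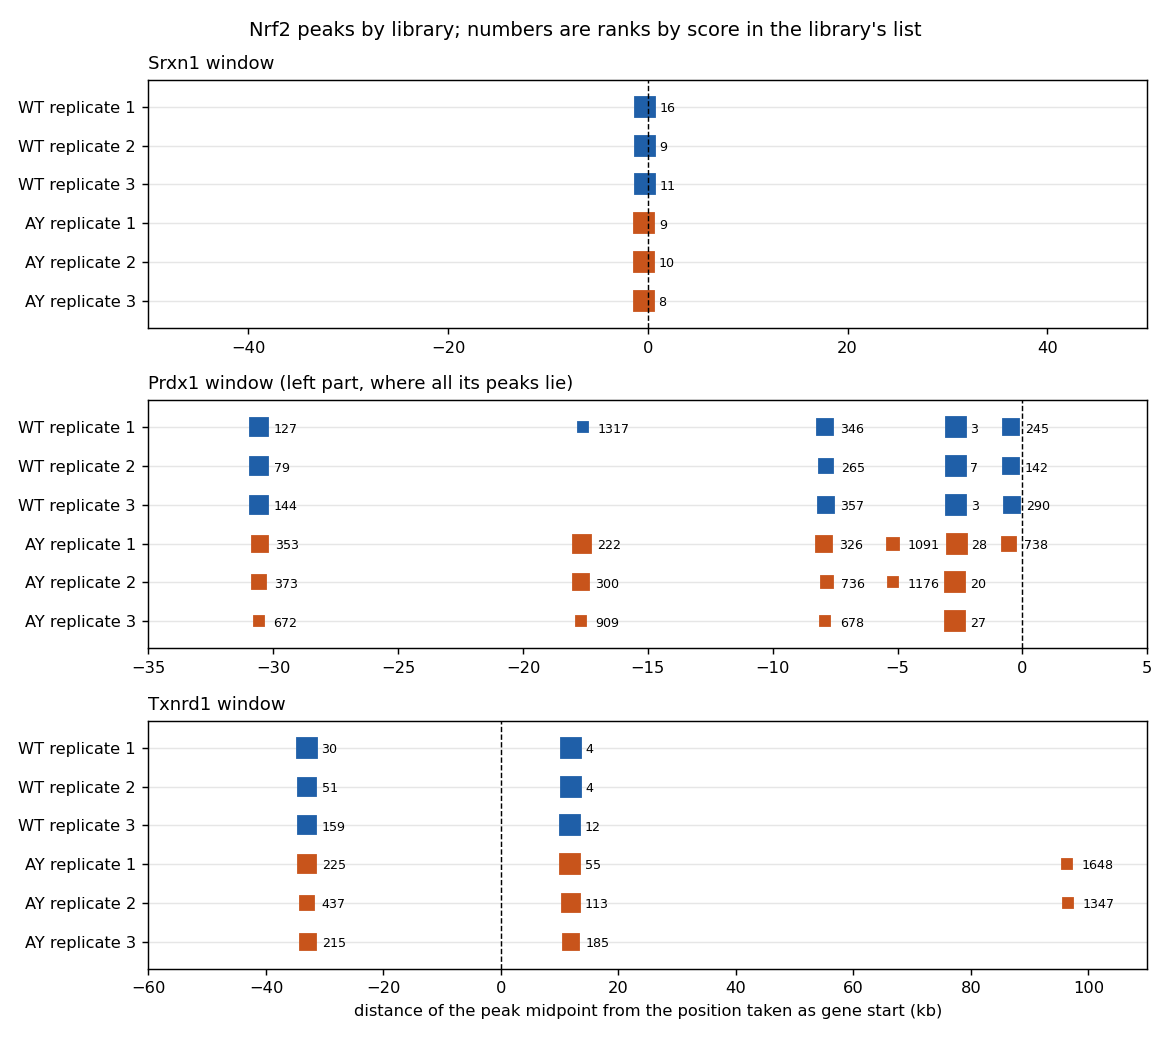
Position of every Nrf2 peak in the 3 windows, by library (rows, WT blue, AY orange), as distance of the peak midpoint from the position taken as gene start (kb, dashed line). The number beside a square is the peak's rank by score in its own list and larger squares lie higher in the list; the -2.7 kb region of Prdx1 ranks 3, 7 and 3 for WT and 28, 20 and 27 for AY.

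Srxn1 had a single region, and both forms of Nrf2 placed it near the top of their lists. It spanned 151930666 to 151931723 on chromosome 2, 1058 bp that include the gene start used, at -0.3 kb. The next region of any library lay 495 kb away. Its deposited scores, the authors' own peak values read as 10 times the negative log10 of a p-value, were 1123.86, 688.6 and 765.03 for WT replicates 1 to 3, against 1915, 1346.05 and 916.05 for AY replicates 1 to 3. Scores move with read depth, so libraries were compared by rank. In the whole lists the region ranked 16, 9 and 11 for WT and 9, 10 and 8 for AY, which is within the first 1.09% of every list. Among the 202 regions that all libraries hold, it ranked 14, 7 and 7 for WT and 6, 7 and 5 for AY. The ranks of the genotypes overlapped. The mean rank was 9.33 ± 4.04 for WT against 6 ± 1 for AY (± SD over n = 3 libraries), a difference of -3.33 places (exact permutation p = 0.3, two-sided, adjusted p = 0.396 over the 202 regions).

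The scale of these tests is limited by the number of libraries. With 3 libraries against 3 the exact permutation test cannot give a p below 0.1, and adjusted over 202 regions it cannot give less than 0.166 here. The ranks were therefore also compared with limma, on the logit (log2 odds) of the rank among the 202 regions, with Benjamini-Hochberg adjustment over all of them. At Srxn1 the limma difference, AY minus WT, was -0.63 ± 0.56 (SE; limma adjusted p = 0.373).

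At Txnrd1 the strongest region ranked higher in WT than in AY. It lay at +11.8 kb, from 82321366 to 82322322 on chromosome 10. Since RefSeq gives Txnrd1 several starts and the start used is approximate, this distance does not place the region inside or outside the transcribed part. Scores were 1563.11, 929.65 and 764.74 for WT replicates 1 to 3, against 926.07, 421.06 and 203.53 for AY replicates 1 to 3. It ranked 4, 4 and 12 in the whole WT lists and 55, 113 and 185 in the AY lists. Every WT library thus ranked it higher than any AY library did, and the AY libraries differed widely among themselves, from the first 2.55% of the list in replicate 1 to 17.0% in replicate 3. Among the 202 common regions the mean rank was 4.67 ± 2.89 for WT against 57.3 ± 21.0 for AY (± SD over n = 3 libraries; exact permutation p = 0.1, the smallest possible). On the logit scale the difference was 4.36 ± 0.69 (SE; limma adjusted p = 0.00188). It stayed below an adjusted p of 0.05 in every alternative run with limma, the highest value being 0.0152 without both libraries numbered 3.

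The second Txnrd1 region, at -33.0 kb (82276494 to 82277458), showed a smaller separation. It ranked 30, 51 and 159 in the whole WT lists and 225, 437 and 215 in the AY lists, so the groups did not overlap there. WT replicate 1 was highest and AY replicate 2 lowest. Among the common regions the ranks were 25, 39 and 88 for WT and 96, 140 and 86 for AY, so WT replicate 3 fell within the AY range. Mean ranks were 50.7 ± 33.1 for WT against 107 ± 28.7 for AY (± SD over n = 3 libraries; exact permutation p = 0.2). The limma difference was 1.96 ± 0.78 (SE), with an adjusted p of 0.0722. The call depended on the libraries and lists used, since the limma adjusted p was 0.0231 without WT replicate 3 and 0.0358 with lists of equal length. In all 6 libraries this region scored below the +11.8 kb region, across a gap of 43907 bp. In AY replicate 3 the scores came closest, at 179.52 and 203.53.

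A further weak region at Txnrd1 was seen in AY only. At +96.4 kb (82406109 to 82406732) AY replicates 1 and 2 had peaks with scores of 70.88 and 52.77, and the other 4 libraries had none. They ranked 1648 of 2154 and 1347 of 1441, near the end of the lists. Of all regions, 10.0% had this pattern of 2 AY and 0 WT libraries. A presence of 0 of 3 against 2 of 3 gave a two-sided Fisher's exact p of 0.4. No peak remained there with a score of at least 100.

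Prdx1 had a cluster of 6 regions, all upstream of the start used and within 31 kb of it. The gaps between them were 12036, 8801, 1969, 1626 and 1268 bp, going toward the gene, and the nearest region outside the window was 252 kb away. Each had at least 5 others within 50 kb, as had 6.56% of all regions. Of the 202 regions common to all libraries, 9 (4.46%) had at least 2 other common regions within 50 kb, and 3 of those 9 were at Prdx1. In the gene order of GRCm38 the protein-coding gene before Prdx1 is Akr1a1, an aldehyde reductase, and the one after it is Mmachc, which processes vitamin B12. Which gene the upstream regions act on cannot be read from peak positions.

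The main Prdx1 region lay at -2.7 kb, from 116355287 to 116356368 on chromosome 4, and was the highest-scoring peak of the window in all 6 libraries. Its scores were 1631.18, 703.83 and 1282.87 for WT replicates 1 to 3, against 1232.71, 909.84 and 493.52 for AY replicates 1 to 3. In the whole lists it ranked 3, 7 and 3 for WT and 28, 20 and 27 for AY, so the groups did not overlap, although even in AY it stayed in the first 2.49% of the list. Among the common regions it ranked 2, 5 and 2 for WT and 19, 14 and 16 for AY. The mean was 3 ± 1.73 for WT against 16.3 ± 2.52 for AY (± SD over n = 3 libraries; exact permutation p = 0.1). On the logit scale the difference was 2.96 ± 0.62 (SE; limma adjusted p = 0.00651). Without both libraries numbered 3 the limma adjusted p was 0.0679, with a difference of 2.37.

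The Prdx1 region farthest upstream, at -30.6 kb (116327543 to 116328354), also ranked higher in every WT library. Its ranks in the whole lists were 127, 79 and 144 for WT and 353, 373 and 672 for AY. Among the common regions they were 81, 55 and 80 for WT and 128, 124 and 166 for AY. AY replicate 3 was the lowest, with a score of 75.53. Mean ranks were 72 ± 14.7 for WT against 139 ± 23.2 for AY (± SD over n = 3 libraries; exact permutation p = 0.1). The limma difference was 2.09 ± 0.62 (SE), with an adjusted p of 0.0275. Without AY replicate 3 the difference was 1.21 (limma adjusted p = 0.178). Without AY replicate 1 it was 2.28 and without WT replicate 1 it was 2.25, with limma adjusted p of 0.0611 and 0.0513. Both differences were larger than with all libraries. The limma adjusted p was 0.04235 without WT replicate 2, 0.0337 without WT replicate 3 and 0.0454 without AY replicate 2. Without both libraries numbered 3 the difference was 1.55 (limma adjusted p = 0.143). WT and AY ranks did not overlap in any of the fits without 1 library. In those fits 31.7% to 37.5% of all common regions ranked higher in every WT library.

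The region at -7.9 kb (116350109 to 116351034) did not separate the genotypes. It ranked 346, 265 and 357 in the whole WT lists and 326, 736 and 678 in the AY lists. Among the common regions it ranked 151, 130 and 141 for WT and 121, 172 and 169 for AY. AY replicate 1 thus placed it higher than every WT library did, and the other AY libraries lower. The mean rank was 141 ± 10.5 for WT against 154 ± 28.6 for AY (± SD over n = 3 libraries; exact permutation p = 0.5; limma difference 0.60 ± 0.66 SE, adjusted p = 0.47). Leaving out AY replicate 3 turned the sign of the difference, to -8.5 places.

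**Figure D2:**
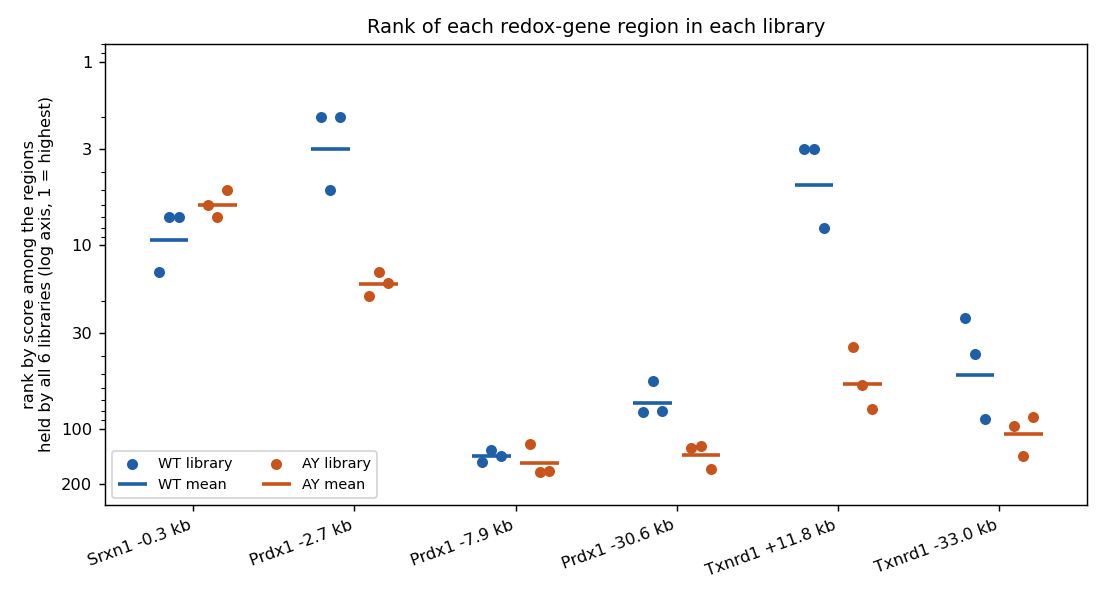
Rank by score of the 6 redox-gene regions among the 202 regions held by all 6 libraries (vertical log axis, 1 is the highest score); points are libraries, lines are genotype means, WT blue and AY orange. WT and AY points do not overlap at Prdx1 -2.7 kb, Prdx1 -30.6 kb and Txnrd1 +11.8 kb, where WT ranks are higher.

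The other 3 Prdx1 regions were missing from some libraries. Nearest to the gene, at -0.5 kb (116357637 to 116358436), all 3 WT libraries had a peak, with scores of 288.26, 212.82 and 174.76 and ranks of 245, 142 and 290. Of the AY libraries replicate 1 alone had one, with a score of 167.87 at rank 738 of 2154. The WT peaks lay in the first 15.3% to 18.9% of their lists and the AY peak at 34.3%. Of all regions, 1.78% were held by 3 WT libraries and 1 AY library (Fisher's exact p = 0.4 for 3 of 3 against 1 of 3, two-sided). The AY libraries without this peak were those with the shorter AY lists of 1441 and 1086 peaks. WT replicate 2 had the shortest list of all, 826 peaks, and held the peak. Among the 826 highest-scoring peaks of every library, 3 WT libraries and 1 AY library still held it, as with a score of at least 100. The part of list length in this pattern was not tested.

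The region at -17.7 kb (116340391 to 116341307) had the reverse pattern. All 3 AY libraries had a peak there, with scores of 428.28, 215.77 and 57.45 and ranks of 222 of 2154, 300 of 1441 and 909 of 1086. Among the WT libraries replicate 1 alone had a peak, with a score of 61.15 at rank 1317 of 1604. AY replicates 1 and 2 thus placed it in the first 10.3% and 20.8% of their lists, while AY replicate 3 (83.7%) and WT replicate 1 (82.1%) placed it near the end. Of all regions, 1.69% were held by 1 WT library and 3 AY libraries (Fisher's exact p = 0.4). Among the 826 highest-scoring peaks of every library, AY replicates 1 and 2 kept this peak and no other library did.

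A weaker region at -5.2 kb (116353004 to 116353660) had peaks in AY replicates 1 and 2, with scores of 117.12 and 59.34 at ranks 1091 and 1176, and no peak in any WT library. The order of scores inside the cluster differed from that of WT in AY replicates 1 and 2. In each WT library the -2.7 kb region came first, followed by -30.6 kb, -0.5 kb and -7.9 kb, with -17.7 kb last where present. In AY replicates 1 and 2 the -17.7 kb region came second. In AY replicate 3 the order was -2.7, -30.6, -7.9 and -17.7 kb, with scores of 493.52, 75.53, 74.98 and 57.45. That is the WT order without the -0.5 kb peak. Whether sites in the cluster differ from each other in their response to genotype was not tested.

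Across the 3 genes, 3 of the 6 common regions had WT ranks above all AY ranks, and none had the reverse. Of all 202 common regions, 32.2% were ranked higher in every WT library and 28.2% in every AY library. By limma, the same 3 regions were called higher in WT (Txnrd1 +11.8 kb, Prdx1 -2.7 kb and Prdx1 -30.6 kb), against 22.8% of the 202 regions, and 0 of 6 were called higher in AY, against 23.8%. The median rank difference, AY minus WT, was 4.83 places over all 202 regions, where differences of both signs offset each other. Taken without sign, the median difference was 40.17 places. The differences at the members ran from -3.33 (Srxn1) to 67.3 places (Prdx1 -30.6 kb). Ordered from the largest difference toward WT, these 2 regions stood at places 114 and 28 of 202, with the other members between them. Ranks that separated the genotypes were thus frequent among all common regions, and no test sets the members' share apart from that.

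**Figure D3:**
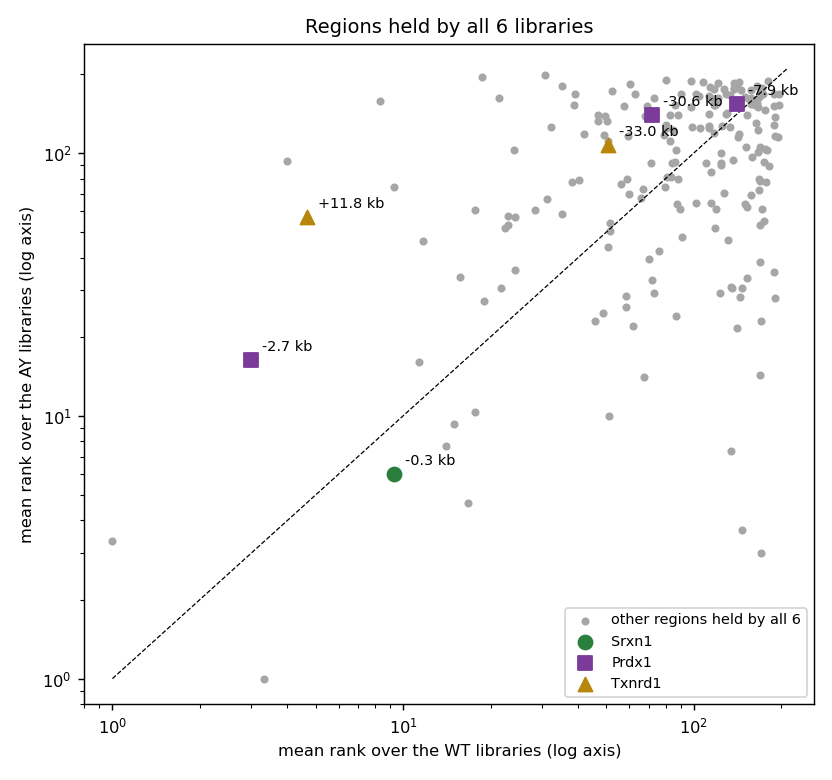
Mean rank over the 3 AY libraries against mean rank over the 3 WT libraries for the 202 regions held by all libraries (log axes, 1 is the highest score, dashed line marks equal ranks). Grey points are other regions and coloured points the redox-gene regions; Txnrd1 +11.8 kb (4.67 in WT, 57.3 in AY) and Prdx1 -2.7 kb (3 and 16.3) lie on the WT side, and Srxn1 (9.33 and 6) lies near the line.

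Peak shape gave further values that the choice of windows did not use. The called peak at Txnrd1 -33.0 kb was 965, 752 and 813 bp wide in WT and 730, 704 and 603 bp in AY, wider in every WT library (843 ± 110 against 679 ± 67.1 bp, SD, n = 3; exact permutation p = 0.1, adjusted p = 0.748 over 202 regions). It was the only one of the 6 with widths that did not overlap. Of the 202 regions 5.94% were wider in every WT library and 7.43% in every AY library. The width of the Srxn1 peak was 866 ± 139 bp for WT against 917 ± 79.6 bp for AY (± SD over n = 3 libraries; exact permutation p = 0.7). Median widths of whole lists ranged from 508 to 597 bp in WT and from 511 to 660 bp in AY.

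The midpoints of the 6 libraries spanned 41.5 to 106 bp at the common regions of these genes, beside a median of 92.75 bp over all 202. At 4 of the 6 regions the span was 41.5 to 84.5 bp and the genotypes overlapped. At Srxn1, where the span was 94 bp, the AY midpoints lay nearer the upstream side by 57.3 bp, with SDs of 14.8 bp in WT and 20.8 bp in AY (n = 3 each). At Txnrd1 -33.0 kb, with a span of 106 bp, they lay 67.2 bp toward higher coordinates, with SDs of 16.4 bp in WT and 20.3 bp in AY. At both the genotypes did not overlap (exact permutation p = 0.1, adjusted p = 0.631 over 202 regions), as was the case at 15.8% of the 202 regions. The deposited peaks have no summit, so a midpoint also moves with the width of the call.

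The common regions outside the windows that were most like the leading region of each gene were found by the distance between their 6 log2 ranks. Regions of the windows themselves were left out of this search, so a fellow member may lie closer than those named. Most like Srxn1 were chromosome 9, 82873705 to 82874718 (distance 1.37), chromosome 4, 11015494 to 11016508 (2.12), and chromosome 7, 52715824 to 52716829 (2.37). The first of these ranked 21, 10 and 11 for WT and 9, 6 and 8 for AY among the common regions. Most like Txnrd1 +11.8 kb were chromosome 3, 50240046 to 50241046 (2.34), chromosome 19, 12538332 to 12539325 (2.9), and chromosome 6, 123157124 to 123158206 (3.22). The first of these ranked 5, 4 and 3 for WT and 102, 93 and 85 for AY. Distances were larger for Prdx1 -2.7 kb. Its closest outside the windows were chromosome 17, 43694436 to 43695446 (4.02), the chromosome 4 region at 11015494 (4.46) and the chromosome 19 region at 12538332 (4.58). These likenesses rest on 6 libraries and describe order only.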

How the data were processed

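Nrf2 ChIP-seq peak lists of 6 libraries (3 WT, 3 AY) were analysed. The submitters' processing notes name MACS 1.4, Bowtie2, bcl2fastq 2.15.0 and the build mm9. Settings, control and duplicate handling were not stated there. Each library has its own list from the authors, not pooled, giving positions and a score for each peak. The deposited score, 50 to 3100, was read as 10 times the negative log10 of the p-value, and it served only for ranking and filtering inside 1 list. Depth is unknown, so no counting interval is given. A deeper library can yield more peaks, higher scores and wider calls.

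Peaks overlapping by 1 bp were merged over the whole genome, with coordinates counted from 1. The highest-scoring peak stood for a library in a region. Ranks were compared over the 202 regions held by all libraries, so that every list had 1 length, by two-sided exact permutation tests over 20 assignments (Python 3.11.15, numpy 2.4.6) and by limma 3.58.1 in R 4.3.3, with Benjamini-Hochberg adjustment over all 202. The scripts were checked on simulated lists of known regions and shifts. Named were every region of the windows and, for each gene's leading region, the 3 most alike outside the windows. Members, windows and lists were chosen with earlier results of these data known. Promoters came from RefSeq (GRCm38.p6) by symbol, and 4 of the 23 other pathway genes had none. Replicate numbers were not taken to pair libraries.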

Additional observations from a re-analysis of the deposited data

How the results depend on the processing

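Exact tests cannot pass 0.05 with these libraries, so direction and range were compared. The alternatives for the limma fits beyond the first, and those for midpoints, were chosen after seeing the data. The number of regions held by all libraries was 6 in each fit without 1 library. It was 4 with windows of 10 kb (wider at Txnrd1) and with a score of at least 100. That score drops Prdx1 -30.6 and -7.9 kb, which give no rank value. The count of 3 regions ranked higher in every WT library also moved. Txnrd1 -33.0 kb joined them with a score of at least 100, with equal lists, and without WT replicate 2, WT replicate 3, AY replicate 3 or both libraries numbered 3, so that 4 of 6 did so with equal lists. It also joined them by relative rank in the whole list (exact permutation p = 0.1). Prdx1 -7.9 kb joined them without AY replicate 1, as did 32.4% of all regions held by every library. Srxn1 ranked higher in every AY library without WT replicate 2 or AY replicate 2. With 1 library left out, the rank difference, AY minus WT, was 40 to 89.33 places at Txnrd1 -33.0 kb, 42.33 to 63.67 at Txnrd1 +11.8 kb, -5 to -1 at Srxn1, 50.83 to 88.33 at Prdx1 -30.6 kb, -8.5 to 37.83 at Prdx1 -7.9 kb and 12 to 16 at Prdx1 -2.7 kb. The limma fit took 3 of these differences past the threshold, 4.364, 2.088 and 2.959 on the logit scale (Txnrd1 +11.8 kb, Prdx1 -30.6 kb, Prdx1 -2.7 kb). The limma call at Txnrd1 -33.0 kb appeared with a score of at least 100 (adjusted p = 0.0445), with equal lists (0.0358), without WT replicate 3 (0.0231) and without both libraries numbered 3 (0.049); the cause was not tested. The rank difference kept its direction in every alternative run at 5 of the 6 regions, the exception being Prdx1 -7.9 kb. With 1 library left out the limma value at Prdx1 -7.9 kb ranged from -0.1455 (without AY replicate 3) to 1.183. Several width and midpoint differences turned sign with 1 library left out. Width differences ranged from -210 to -103.5 bp at Txnrd1 -33.0 kb, -149.7 to -2.167 at Txnrd1 +11.8 kb, -14.83 to 123.2 at Srxn1, -93.83 to 67.33 at Prdx1 -30.6 kb, -89.17 to 97.83 at Prdx1 -7.9 kb and -148.3 to 36.83 at Prdx1 -2.7 kb. Midpoint differences ranged from 57.17 to 77.42 bp at Txnrd1 -33.0 kb, -3.083 to 31.17 at Txnrd1 +11.8 kb, -65.42 to -45.42 at Srxn1, -7.583 to 13.17 at Prdx1 -30.6 kb, -33.83 to 8.417 at Prdx1 -7.9 kb and -20.5 to 12.75 at Prdx1 -2.7 kb.

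With the replicate number as a block, the rank difference at Txnrd1 +11.8 kb was 52.67 places (exact sign-flip p = 0.25, the smallest possible), and no limma call at the 6 regions changed (adjusted p of 0.000743 at Txnrd1 +11.8 kb). Same-numbered libraries deviated together at r = 0.0961, 0.0861 and 0.195 over 1897 regions held by 2 to 5 libraries. Libraries with different numbers gave r from -0.161 to 0.064. Every library's highest correlation was with the one sharing its number, and whether the numbers mark pairs was not tested. Unknown depth limits every missing peak.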
